A study of Danio rerio with 14 samples.

Results

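Cilia assembly and motility genes were followed in whole zebrafish larvae raised in treated wastewater. The genes were chosen by a rule on their names that used no measured value, though earlier results of these data were known. They were intraflagellar transport genes (ift), Bardet-Biedl syndrome genes (bbs), axonemal dynein chains (dnah and dnai), dynein arm assembly factors (dnaaf), radial spoke genes (rsph), cilia and flagella associated proteins (cfap), tektins (tekt), and 9 genes listed singly (ccdc39, ccdc40, ccdc103, foxj1a, foxj1b, arl13b, kif3a, kif3b and kif17). Such a name is carried by 115 genes of the reference annotation. Of these, 62 genes were matched to 114 of the 43603 probes on the array, and 59 of them, with 103 probes, were measured above background in at least 1 group. The array as a whole gave 12811 named genes measured in this way. Of the 9 listed genes, 6 were matched under their own name, ccdc103 was matched under its current name dnaaf19, and ccdc39 and kif17 were not matched to a probe and were not analysed here. No dnah gene was matched to a probe either.

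A cilium is built on a basal body by intraflagellar transport (IFT), in which kinesin-II carries trains of IFT proteins towards the tip and a dynein carries them back, while the BBSome moves membrane proteins in and out. Motile cilia add dynein arms, radial spokes and a central pair to the microtubule doublets, and a ruler made of the proteins Ccdc39 and Ccdc40 sets where arms and spokes attach. In zebrafish, motile cilia drive flow in Kupffer's vesicle, the brain ventricles, the pronephric ducts and the nasal pits, and immotile cilia serve photoreceptors, olfactory neurons and Hedgehog signalling. The factor Foxj1 switches on the genes of motile cilia.

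All larvae were wild type of the AB strain, 5 days old at collection, and each array carried the RNA of the larvae of 1 well. The control group (4 arrays) was kept in E3 medium, a dilute salt solution for fish embryos, with 0.05% DMSO. Both exposed groups (5 arrays each) received reconstituted secondary effluent from a Tucson wastewater plant, prepared in E3 at its original strength (1x) or at 0.5 times that strength (0.5x) with at most 0.05% DMSO, so the solvent was common to all groups. Exposure began 3 h after fertilisation and lasted 5 days, with 25 to 30 embryos per well in 4 mL at 28 °C and fresh medium every 24 h. No label says whether wells shared a clutch, and p-values measure the spread between wells. A level below is the log2 processed signal of a probe less the 75th percentile of its array, and a fold change is a difference of mean levels on this log2 scale, with its standard error (SE). A gene counted as changed when limma gave a Benjamini-Hochberg adjusted p under 0.05 over all 38802 probes measured, and every adjusted p below is limma's.

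Control replicates 1 and 2 stood apart from the other 12 arrays and were scanned on day 1, as were 3 arrays of the 1x group and 1 array of the 0.5x group. The remaining arrays, control replicates 3 and 4 among them, were scanned on day 2. When each cilia gene was centred on its mean over all arrays, the median over the 59 genes was 0.266 and 0.302 in control replicates 1 and 2, and -0.0661 and -0.00369 in control replicates 3 and 4. In the exposed arrays this median lay between -0.109 and 0.00172, so 2 of the 4 control arrays were above every other array and the other two lay within the range of the exposed arrays. Both controls of day 1 were above both controls of day 2 for 39 of the 59 cilia genes (66.1%), beside 39.8% of all genes, and below them for 5 cilia genes (8.47%), beside 28.8% of all genes. Values within a scan day or without these 2 arrays are therefore given beside the genes called at 1x by their brightest probe. Without these 2 arrays all controls are of day 2, while both exposed groups still hold arrays of day 1. Group and scan day are then partly confounded. "By day" below means within day 1 and then within day 2. The 14 arrays gave median processed signals of 132 to 255, between 85.4% and 90.9% of their probes were well above background, and correlations between arrays ran from 0.953 to 0.996.

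**Figure D1:**
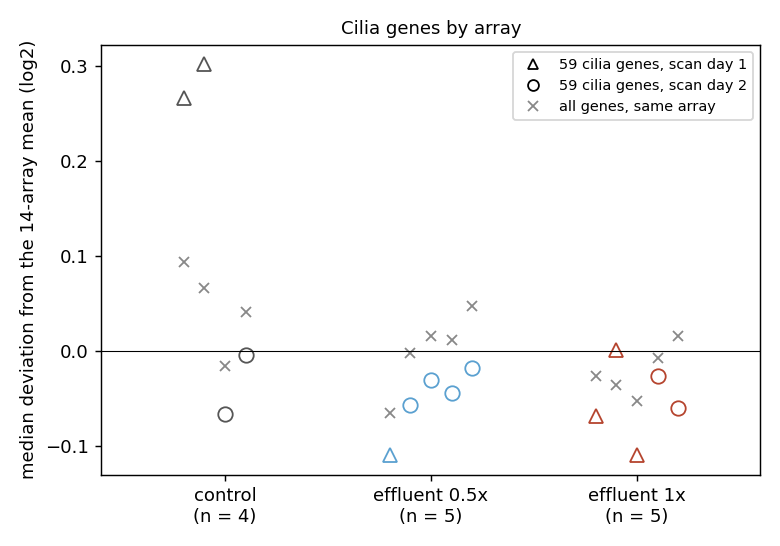
Median over 59 cilia genes of the log2 level, each gene centred on its mean over all arrays, for each of the 14 arrays by group, with triangles for scan day 1 and circles for day 2, and crosses for the same median over all genes. Control replicates 1 and 2 sit at 0.266 and 0.302, and the exposed arrays sit between -0.109 and 0.00172.

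At 1x, 12 of the 59 cilia genes fell against control (20.3%) and 0 rose, while 16.2% of all 12811 genes fell and 10.3% rose (26.6% in either direction). The share of cilia genes that fell was thus near that of all genes. The genes that fell were ccdc40 of the microtubule ruler, the IFT genes ift22, ift74 and ift80, the kinesin-II motor gene kif3b, the ciliary membrane GTPase gene arl13b, the BBSome genes bbs2 and bbs4, the dynein chain gene dnai1.2, the assembly factor gene dnaaf9, and cfap45 and cfap20dc. At an unadjusted p under 0.05, 23 cilia genes were lower and 1, foxj1b, was higher. The share of all genes at an unadjusted p under 0.05, or with a negative value, was not counted here or below. The median fold change over the 59 genes was -0.15, beside -0.05 over all genes, and 40 of the 59 values were negative. The arrays of 1x and control did not overlap for 9 cilia genes (15.3%), beside 20.3% of all genes. In RNA of whole larvae, fewer ciliated cells and less RNA per cell cannot be told apart.

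At 0.5x, 4 of the 59 cilia genes fell (6.78%) and 0 rose, beside 4.3% of all genes that fell and 4.38% that rose (8.68% in either direction). These were ccdc40, ift74, bbs4 and cfap206. At an unadjusted p under 0.05, 16 cilia genes were lower and 3 were higher. The median fold change was -0.18, beside -0.04 over all genes, with 48 of the 59 values negative, and arrays did not overlap for 8 cilia genes (13.6%), beside 10.9% of all genes. Both comparisons use the same 4 control arrays, so their fold changes are not independent of each other.

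The counts and medians moved with the scan day. Within day 1, 22 cilia genes fell at 1x, beside 26.4% of all genes that fell and 17.8% that rose, with a median of -0.34. On that day 15 fell at 0.5x, beside 16.5% of all genes that fell and 11.2% that rose, with a median of -0.36. Day 1 held a single 0.5x array, which is assumed to vary like the other groups. Within day 2, 1 cilia gene, ccdc40, fell at 1x, beside 2.01% of all genes that fell and 2.15% that rose, with a median of 0.03. At 0.5x 2 fell, cfap206 and ift74, beside 0.734% of all genes that fell and 1.44% that rose, with a median of 0.01. Without control replicates 1 and 2, the calls at 1x were ccdc40, which fell, and the radial spoke gene rsph3, which rose, beside 5.54% of all genes that fell and 5.83% that rose, and the median was 0.00. Those at 0.5x were ccdc40 and ift74, which both fell, beside 0.57% of all genes that fell and 1.18% that rose, and the median was -0.03. No cilia gene rose within either day in either comparison (0 calls by limma), while at an unadjusted p under 0.05 those higher at 1x numbered 1 on day 1 and 6 on day 2, and those higher at 0.5x numbered 3 and 4.

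**Figure D2:**
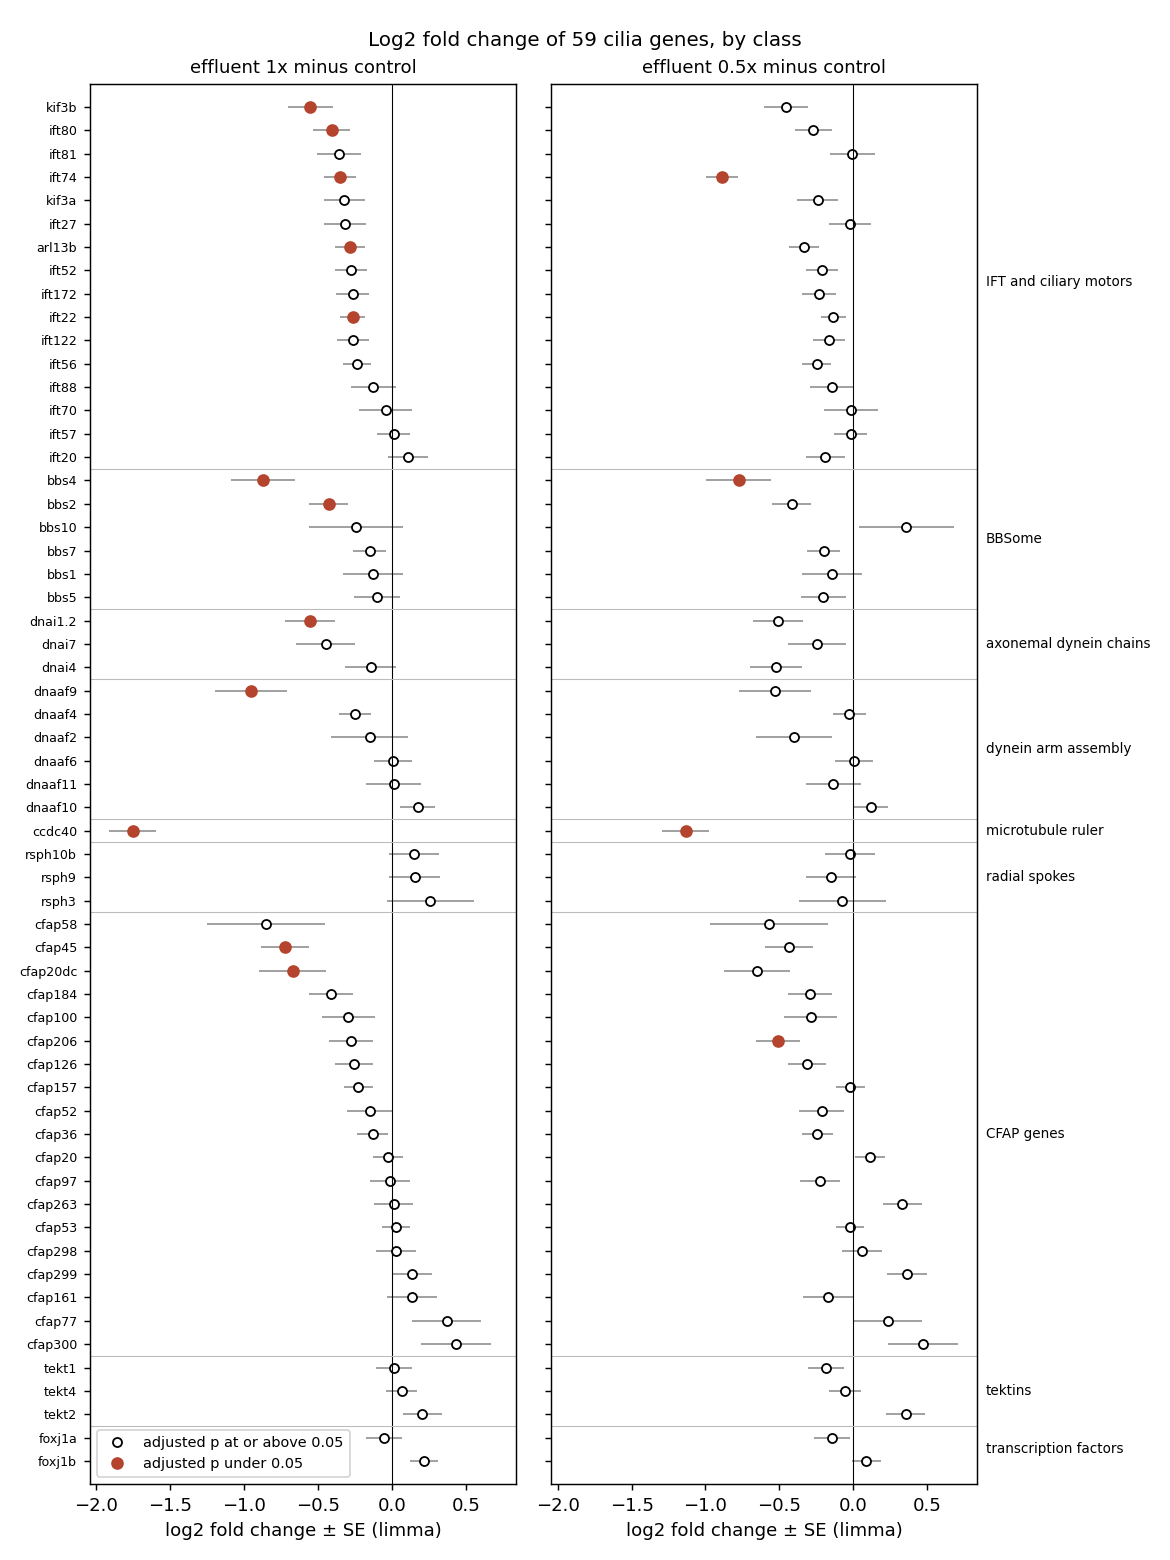
Log2 fold change with its SE (limma) for each of 59 cilia genes, grouped by class, at 1x (left) and 0.5x (right) against the same 4 control arrays. Filled points passed the adjusted p threshold of 0.05, and all of them lie to the left of 0, ccdc40 farthest at 1x and at 0.5x.

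The ruler gene ccdc40, whose loss in the zebrafish mutant locke leaves cilia unable to beat normally, showed the largest fall among the 59 genes at both strengths. Its brightest probe read -0.61, -0.47, -0.97 and -1.04 in control replicates 1 to 4. At 1x it read -2.53, -2.50, -2.54, -2.36 and -2.70, and at 0.5x -2.14, -1.95, -2.14, -1.43 and -1.87. All 10 exposed arrays were below all control arrays, and all 1x arrays were below all 0.5x arrays. The level fell to 0.297 of control at 1x (fold change -1.75 ± 0.16 SE, 4 and 5 arrays, adjusted p = 4.44e-05 by limma) and to 0.456 of control at 0.5x (-1.13 ± 0.16, adjusted p = 0.00108 by limma). The difference between 1x and 0.5x was -0.62 ± 0.15 (adjusted p = 0.0313 by limma).

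Against control the fall of ccdc40 was also measured by scan day and without the early controls. The controls of day 1 are the early ones. Within day 1 the brightest probe gave -1.98 (adjusted p = 0.00188) at 1x and within day 2 -1.53 (adjusted p = 0.0135). At 0.5x the values were -1.60 (adjusted p = 0.00863) and -0.84 (adjusted p = 0.0639), so the call at 0.5x was lost within day 2. Without control replicates 1 and 2 the probe gave -1.52 at 1x (adjusted p = 0.00118) and -0.90 at 0.5x (adjusted p = 0.0227). The difference between the strengths lost its call within day 2 (-0.68, adjusted p = 0.102) and with the slide as a block (-0.63, adjusted p = 0.125). Within day 1, where a single 0.5x array was scanned and 0 of all genes passed in this comparison, it was -0.38, and that day has no bearing on the call. It also lost it without any one of 1x replicates 1, 2, 3 and 5 or 0.5x replicates 2, 4 and 5, with fold changes of -0.63 to -0.50.

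All 3 ccdc40 probes fell at both strengths, by unequal amounts. Probe 2, the next in brightness, gave -1.05 ± 0.13 at 1x (adjusted p = 0.000421) and -0.85 ± 0.13 at 0.5x (adjusted p = 0.00236). Probe 3 gave -0.54 ± 0.15 (adjusted p = 0.0184) and -0.59 ± 0.15 (adjusted p = 0.0281). Between 1x and 0.5x probes 2 and 3 gave -0.20 (adjusted p = 0.364) and 0.06 (adjusted p = 0.843), so the lower level at 1x than at 0.5x rests on 1 probe of the 3. Within day 2 probe 2 still fell at 1x (-0.89, adjusted p = 0.0326) and probe 3 gave -0.29 (adjusted p = 0.214). Probe 3 read -1.45 and -1.50 in the controls of day 1 and -2.16 and -2.10 in those of day 2, and -2.15 to -2.54 at 1x.

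**Figure D3:**
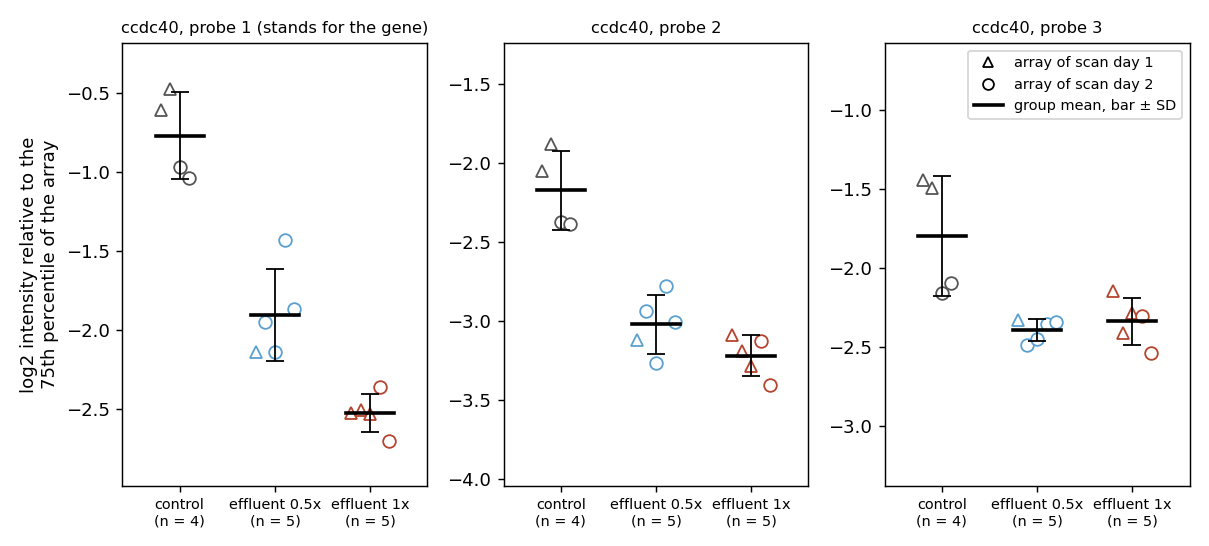
Level of each of the 3 ccdc40 probes in each of the 14 arrays (log2 processed signal less the 75th percentile of the array), by group and scan day, with the group means and bars of 1 SD either way. The brightest probe is at -1.04 to -0.47 in controls, -2.14 to -1.43 at 0.5x and -2.70 to -2.36 at 1x, and only for this probe are the strengths apart.

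The IFT gene ift74, which codes for a core subunit of the IFT-B train that binds tubulin, was lowest at 0.5x and not at 1x. Its brightest probe read 2.43, 2.66, 2.32 and 2.34 in controls, 2.15, 1.88, 2.17, 2.29 and 1.95 at 1x, and 1.44, 1.58, 1.55, 1.62 and 1.57 at 0.5x. The 3 groups did not overlap, with the 1x arrays between the others. At 0.5x ift74 fell to 0.541 of control (-0.89 ± 0.11, adjusted p = 0.000481), at 1x to 0.784 of control (-0.35 ± 0.11, adjusted p = 0.029), and 1x was above 0.5x by 0.54 ± 0.10 (adjusted p = 0.0104, all by limma).

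The fall of ift74 at 0.5x was called within day 1 (-1.11, adjusted p = 0.0171), within day 2 (-0.75, adjusted p = 0.0178) and without control replicates 1 and 2 (-0.78, adjusted p = 0.00771). The fall at 1x was called within day 1 (-0.48, adjusted p = 0.0374) and not within day 2 (-0.21, adjusted p = 0.381). It was also lost with the replicate number as a block (-0.34, adjusted p = 0.0624) and when control replicate 1 or 2, or 1x replicate 2 or 5, was left out (-0.35, -0.28, -0.30 and -0.32). The difference between the strengths was 0.62 within day 1, where 0 of all genes passed, 0.54 within day 2 (adjusted p = 0.0503) and 0.52 with the slide as a block (adjusted p = 0.0662).

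All 4 ift74 probes fell at 0.5x, with fold changes of -0.89, -0.63, -0.48 and -0.49 (adjusted p = 0.000481, 0.0243, 0.0391 and 0.0479). Only the brightest was called within day 2, where the others gave -0.41, -0.48 and -0.56 (adjusted p = 0.232, 0.158 and 0.149). At 1x the fold changes of the 4 probes were -0.35, -0.34, 0.05 and -0.01, and only the brightest was called. Between 1x and 0.5x they were 0.54, 0.29, 0.52 and 0.48, of which probes 1 and 3, in order of brightness, were called (adjusted p = 0.0104 and 0.0294). The mean level at 0.5x was thus below that at 1x for all 4 probes, and 2 of these differences passed the test.

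**Figure D4:**
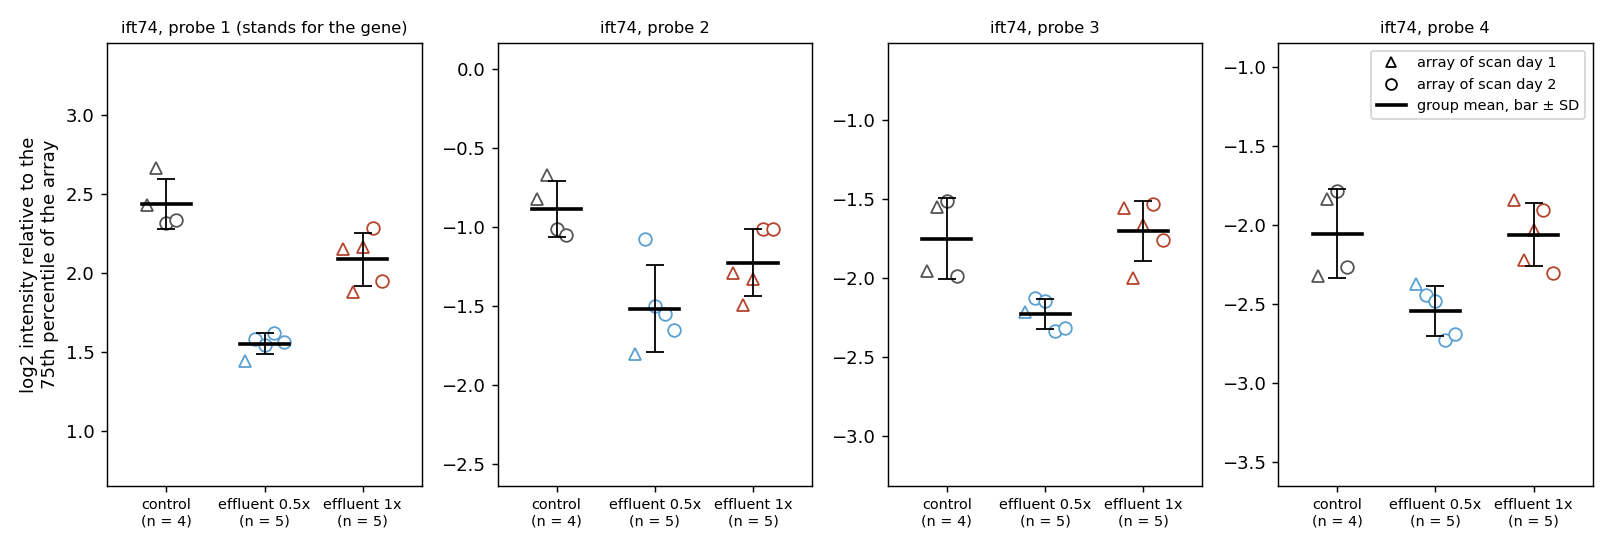
Level of each of the 4 ift74 probes in each of the 14 arrays (log2 processed signal less the 75th percentile of the array), by group and scan day, with the group means and bars of 1 SD either way. The 0.5x arrays of the brightest probe lie at 1.44 to 1.62, below the 1x arrays at 1.88 to 2.29 and the controls at 2.32 to 2.66.

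Among the 16 IFT genes and ciliary motors, 5 fell at 1x and 0 rose, beside 16.2% of all genes that fell and 10.3% that rose. Of their fold changes 14 of 16 were negative, and at an unadjusted p under 0.05 the numbers were 12 lower and 0 higher. Neither count has a share of all genes beside it. The median was -0.27, beside -0.05 over all genes, and the range -0.55 to 0.11. Within day 1 the count was 11 lower with a median of -0.39, beside 26.4% of all genes lower, and within day 2 it was 0 by limma, with 1 lower and 0 higher at an unadjusted p under 0.05, beside 2.01% of all genes lower, and a median of -0.11. The motor subunit gene kif3b of kinesin-II, which drives trains to the ciliary tip, read -3.11, -3.51, -3.84 and -3.88 in controls and -4.01, -3.93, -4.22, -4.14 and -4.38 at 1x (-0.55 ± 0.15, adjusted p = 0.0175). All 1x arrays were below all controls, with the early controls farthest away, and the call was lost without control replicate 1 (-0.39, adjusted p = 0.0543). Within day 1 kif3b gave -0.74 (adjusted p = 0.0158) and within day 2 -0.40 (adjusted p = 0.145). Its partner kif3a read 1.54, 1.55, 1.00 and 1.02 in controls and 0.80 to 1.09 at 1x, and this brightest probe was not called (-0.32 ± 0.14, adjusted p = 0.0963). The other kif3a probes fell (-0.75 and -0.77, adjusted p = 0.0119 and 0.014), with the early controls again farthest away. The first of these read -1.06, -1.35, -1.75 and -2.05 in controls and -2.52 to -2.075 at 1x. The last read 1.30, 1.06, 0.59 and 0.02 in controls and -0.21 to 0.10 at 1x, which overlap.

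The IFT-B gene ift80 read 0.14, -0.02, -0.53 and -0.16 in controls and -0.68 to -0.50 at 1x (-0.41 ± 0.12, adjusted p = 0.0268). These groups overlapped through control replicate 3, and its call ended when control 1, control 2, 1x replicate 2 or 1x replicate 4 was dropped (-0.31, -0.37, -0.41 and -0.38). Within the days ift80 gave -0.58 (adjusted p = 0.00939) and -0.24 (adjusted p = 0.367). The Rab-like GTPase gene ift22, which is 1 of the 59 genes but was picked out for its own values only after these were seen, read -0.37 to -0.20 in controls and -0.64 to -0.50 at 1x, with no overlap (-0.26 ± 0.08, adjusted p = 0.0316). Dropping control 1, control 2, or any of 1x replicates 1 to 3 ended that call (adjusted p = 0.0563 to 0.0851), and the values by day were -0.36 (adjusted p = 0.0311) and -0.15 (adjusted p = 0.442). For arl13b, mutated in the zebrafish line scorpion, the levels were 1.20 to 1.48 in controls and 0.95 to 1.28 at 1x, which overlap (-0.28 ± 0.10, adjusted p = 0.049982), and the call held only without control replicate 3, 1x replicate 4 or 0.5x replicate 1 among the 14 single arrays left out (adjusted p = 0.0558 to 0.133 without each of the others). By day its values were -0.47 (adjusted p = 0.0146) and -0.05 (adjusted p = 0.834). A second arl13b probe fell by more (-0.90 ± 0.20, adjusted p = 0.00738) and the remaining one was not called (-0.12, adjusted p = 0.55). That second probe read -0.68, -0.70, -0.96 and -1.30 in controls and -2.16 to -1.32 at 1x. At 0.5x, ift74 was the 1 gene of the 16 that passed the test (6.25%), beside 4.3% of all genes that fell and 4.38% that rose. All 16 fold changes were negative (-0.89 to -0.01, median -0.20, 5 lower at an unadjusted p under 0.05).

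Of the 6 BBSome and BBSome chaperone genes, bbs2 and bbs4 fell at 1x (33.3%), beside 16.2% of all genes that fell. All 6 fold changes were negative (median -0.20, beside -0.05 over all genes). The BBSome subunit gene bbs4 read -1.68, -2.11, -2.57 and -2.67 in controls, -3.11, -3.52, -3.26, -3.02 and -2.72 at 1x, and -3.57, -2.91, -2.96, -2.94 and -2.77 at 0.5x. No exposed array overlapped the controls at either strength. The fold change was -0.87 ± 0.22 at 1x (adjusted p = 0.0121) and -0.77 ± 0.22 at 0.5x (adjusted p = 0.0412). At 1x it was -1.40 within day 1 (adjusted p = 0.00479), -0.25 within day 2 (adjusted p = 0.311) and -0.51 without control replicates 1 and 2 (adjusted p = 0.133). The other 3 bbs4 probes gave -0.26, 0.04 and -0.08 at 1x and were not called.

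The call of bbs4 at 0.5x was lost when any one of control replicates 1 and 2, 1x replicates 1, 3 and 4, or 0.5x replicates 1 to 4 was left out (-0.81 to -0.58, adjusted p = 0.0529 to 0.142). It was also lost within day 2. That call rests on the brightest bbs4 probe alone, since the others were not called at 0.5x and overlapped the controls. The dimmest read -4.13, -4.87, -4.56 and -4.58 in controls. At 0.5x it was mostly higher, at -4.27, -4.16, -3.95, -3.855 and -3.97. The BBSome subunit gene bbs2 read 1.33, 1.26, 0.71 and 0.82 in controls and 0.64, 0.49, 0.58, 0.67 and 0.63 at 1x (-0.43 ± 0.13, adjusted p = 0.0271). Its 1x arrays lay just below the controls of day 2 and well below those of day 1, and its fold change was -0.73 within day 1 (adjusted p = 0.00569) and -0.11 within day 2 (adjusted p = 0.653). The bbs2 call ended when control 1, control 2, 1x replicate 2 or 1x replicate 3 was dropped (-0.33, -0.35, -0.40 and -0.42). The brightest probe of bbs7, another subunit gene, gave -0.15 (adjusted p = 0.329) and its second probe fell to 0.467 of control (adjusted p = 0.0103). That second probe read 0.01, -0.74, -0.79 and -1.08 in controls and -2.17, -1.85, -1.92, -1.68 and -1.13 at 1x.

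The 3 axonemal dynein chain genes measured were all dnai genes, and all 3 fold changes at 1x were negative (-0.55 to -0.14). Of these genes, dnai1.2 alone fell at 1x, beside 16.2% of all genes that fell. This gene, an intermediate chain of the outer dynein arm, read -3.46, -3.64, -4.12 and -4.08 in controls and -4.67, -4.20, -4.62, -4.40 and -4.00 at 1x (-0.55 ± 0.17, adjusted p = 0.0278). The groups overlapped through 1x replicate 5. Dropping control 1, control 2, 1x replicate 1 or 1x replicate 3 ended the call (-0.43, -0.49, -0.48 and -0.49), and within day 2 the value was -0.10 (adjusted p = 0.753). The second dnai1.2 probe was well above background on 0 of 4 control, 4 of 5 1x and 2 of 5 0.5x arrays, so it has only a bound in controls, and it was not called (adjusted p = 0.206). The brightest probe of the class, that of dnai4, read -3.57, -3.63, -4.03 and -4.55 in controls and -4.28 to -3.87 at 1x (-0.14 ± 0.17, adjusted p = 0.558).

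Dynein arms are put together in the cytoplasm by the products of the dnaaf genes. Of 6 such genes measured, 3 had negative fold changes at 1x. Only dnaaf9 fell (16.7%), beside 16.2% of all genes that fell. It read -3.04, -3.78, -3.66 and -3.86 in controls, -4.42, -4.95, -4.93, -4.44 and -3.96 at 1x, and -4.76 to -3.68 at 0.5x. The 1x arrays were all below the controls (-0.95 ± 0.24, adjusted p = 0.0129), and the 0.5x arrays were not (-0.53 ± 0.24, adjusted p = 0.154). No single array decided the call at 1x, but the fold change was -1.35 within day 1 (adjusted p = 0.0121), -0.44 within day 2 (adjusted p = 0.224) and -0.78 without control replicates 1 and 2 (adjusted p = 0.089). For dnaaf10 the brightest probe gave 0.18 (adjusted p = 0.275), and the other rose by 0.51 ± 0.17 (adjusted p = 0.0343), the only one of the 103 probes called higher at 1x.

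Of the 19 cfap genes, 2 fell at 1x (10.5%), beside 16.2% of all genes that fell. Among the 19, 12 fold changes were negative, with a median of -0.13 and a range of -0.85 to 0.43. The gene cfap45, which codes for a protein inside the microtubule doublet, read -1.01, -1.14, -1.41 and -1.76 in controls and -2.48, -1.96, -2.07, -1.93 and -1.83 at 1x, with no overlap (-0.72 ± 0.16, adjusted p = 0.00759). Its second probe fell by 0.66 on the log2 scale (adjusted p = 0.0181). The brightest probe gave -1.1 within day 1 (adjusted p = 0.00703), -0.29 within day 2 (adjusted p = 0.29) and -0.47 without control replicates 1 and 2 (adjusted p = 0.0903), and its call was not lost when any 1 array was left out.

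The gene cfap20dc read -4.59, -4.32, -5.08 and -4.50 in controls and -5.49, -4.75, -5.16, -5.64 and -5.43 at 1x (-0.67 ± 0.22, adjusted p = 0.0379). Its groups overlapped through control replicate 3 and 1x replicate 2, and the call ended when any of controls 1, 2 and 4 or of 1x replicates 1, 3, 4 and 5 was dropped (-0.71 to -0.57, adjusted p = 0.0593 to 0.106). Its values within the days were close, -0.68 and -0.74, and neither was called (adjusted p = 0.0576 and 0.157). For cfap20, whose product seals the inner junction of the doublet, the levels were 1.21 to 1.49 in controls and 1.19 to 1.42 at 1x, which overlap (-0.02).

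At 0.5x the gene cfap206, which codes for a protein at the base of a radial spoke, read -5.08, -4.80, -4.93, -5.03 and -5.09, below the controls at -4.66, -4.59, -4.43 and -4.24 (-0.51 ± 0.15, adjusted p = 0.0488). For this probe the 1x arrays ran from -5.15 to -4.43 and overlapped the controls (-0.28 ± 0.15, adjusted p = 0.177). The fall at 0.5x was not larger in the early scans, with -0.46 within day 1 (adjusted p = 0.115), -0.63 within day 2 (adjusted p = 0.0361) and -0.65 without control replicates 1 and 2 (adjusted p = 0.109). Its call was lost when any one array other than 1x replicate 3 or 5 was left out (-0.57 to -0.43, adjusted p = 0.0511 to 0.0967). The other cfap206 probes gave -0.57 and -0.77 at 0.5x and were not called (adjusted p = 0.0595 and 0.052). At 1x, however, a cfap206 probe other than the brightest was called lower. The dimmest of the probes measured read -4.95, -4.83, -5.74 and -5.37 in controls and -6.32 to -5.80 at 1x, with no overlap. A fall at 0.5x and not at 1x thus holds for the brightest probe only.

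Radial spoke genes, tektin genes and the foxj1 genes had 0 calls by limma at either strength, beside 26.6% of all genes called at 1x and 8.68% at 0.5x. With only 3, 3 and 2 genes measured, 0 calls do not set these classes apart from all genes. At an unadjusted p under 0.05, 1 gene (foxj1b) was higher at 1x and 1 (tekt2, chosen after its values were seen) was higher at 0.5x. The 3 radial spoke genes gave 0.15 to 0.26 at 1x, none under an unadjusted p of 0.05. The spoke gene rsph10b read -3.34, -3.38, -3.84 and -3.74 in controls and -3.54 to -3.27 at 1x. The spoke gene rsph3, which rose at 1x when control replicates 1 and 2 were left out (0.90 ± 0.24, adjusted p = 0.0363), read -4.36, -4.72, -5.55 and -6.08 in controls, -4.55, -4.77, -4.62, -5.35 and -5.30 at 1x and -5.49 to -4.91 at 0.5x, so the arrays of day 1 were the higher ones in each group. It gave -0.10 within day 1 and 0.49 within day 2, neither called.

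The tektin gene tekt1, which codes for filaments inside the doublets, read -1.89, -2.14, -2.51 and -2.33 in controls and -2.34 to -2.07 at 1x (0.02). The 3 tektin genes gave 0.02 to 0.21 at 1x, none under an unadjusted p of 0.05. The factor gene foxj1a read -1.07, -1.06, -1.26 and -1.30 in controls, -1.43 to -0.95 at 1x and -1.54 to -1.11 at 0.5x (-0.05 ± 0.12 and -0.15 ± 0.12, adjusted p = 0.778 and 0.423). All 3 groups overlapped. A second, dimmer foxj1a probe read -3.12, -3.42, -3.48 and -3.95 in controls and -4.36, -4.20, -4.17, -3.83 and -3.55 at 1x. Most of its 1x arrays were thus below most controls, but the groups overlapped and the probe was not called. The paralogue foxj1b read -2.34, -2.42, -2.52 and -2.53 in controls and -2.36 to -2.09 at 1x (0.22 ± 0.10, unadjusted p = 0.0409, adjusted p = 0.102).

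For 3 genes no probe passed the filter on dim probes, and no fold is given. The assembly factor gene dnaaf19 had 2 probes, 1 of them well above background on 0 control, 2 1x and 1 0.5x arrays and the other on 0 arrays of any group. The gene cfap96 was well above background on 2 0.5x arrays alone. The dynein chain gene dnai2a was so on 0 control, 1 1x and 3 0.5x arrays.

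Between the strengths, 2 of the 59 cilia genes differed (3.39%), 1 in each direction, beside 4.32% of all genes (1.67% higher and 2.65% lower at 1x). The levels of ift74 were higher at 1x and those of ccdc40 were lower, as given above, and at an unadjusted p under 0.05, 3 cilia genes were higher at 1x and 5 were lower. The median difference was -0.01, beside -0.02 over all genes. Arrays did not overlap for 5 cilia genes (8.47%), beside 10.2% of all genes. Apart from ccdc40, ift74 and ift22, these were ift20, of the IFT-B train (0.30 ± 0.13, adjusted p = 0.184), and dnai4 (0.38 ± 0.16, adjusted p = 0.198), neither of which was called and of which ift20 was chosen after its values were seen. Within either scan day 0 cilia genes differed by limma, with 3 higher and 3 lower on day 1 and 5 higher and 2 lower on day 2 at an unadjusted p under 0.05. Of all genes 0 differed within day 1, and 0.937% were higher and 1.8% lower at 1x within day 2. Without control replicates 1 and 2, the count was again 1 higher and 1 lower, beside 3.83% and 5.43% of all genes.

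The probes of a gene did not always move together. Over all 103 probes, 23 fell and 1 rose at 1x, beside 15.6% and 11.9% of all named probes. At 0.5x 11 fell and 0 rose, beside 4.47% and 4.03%. Between the strengths 2 were higher and 1 was lower at 1x, beside 1.78% and 2.19%. Of the 29 genes with 2 or more probes, 19 had probes of 1 sign at 1x and 22 at 0.5x. At 1x 13 of the 29 had at least 1 probe called, and in ccdc40 and cfap45 all probes were. At 0.5x 6 had at least 1 probe called, and in ccdc40 and ift74 all were. The matching shares over all genes with 2 or more probes were not counted, so these counts are a description. Probes of a gene share its RNA and are not independent replicates.

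Across the scan days, the 12 genes that fell at 1x kept a negative fold change on both, but their sizes differed. Within day 1 their fold changes ran from -1.98 to -0.365 with a median of -0.74, and 11 of the 12 were called. Within day 2 they ran from -1.53 to -0.0495 with a median of -0.25, and 1 of the 12, ccdc40, was called. The controls of day 1 took part in choosing these 12 genes, so the counts by day are a description. Day 1 held 2 control and 3 1x arrays and day 2 held 2 of each.

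**Figure D5:**
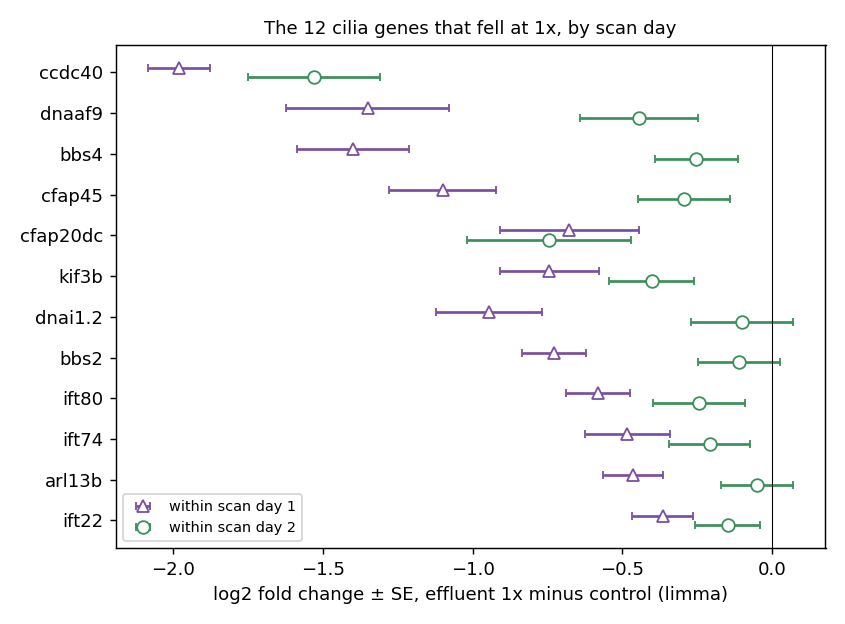
Log2 fold change at 1x against control of each of the 12 cilia genes that fell, within scan day 1 and within scan day 2, with bars for the SE (limma). All 12 are below 0 on both days, and ccdc40, at -1.98 and -1.53, is the only one called within day 2.

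Other genes of the cilium were followed in lists that the naming rule does not reach. Of 14 tubulin modifying enzymes measured of 21 listed, 7 fell at 1x and 0 rose, beside 16.2% of all genes that fell and 10.3% that rose, with a median of -0.47, beside -0.05 over all genes. Among them were tpgs1, a subunit of a tubulin polyglutamylase (-0.76 ± 0.14, adjusted p = 0.00298, with -0.84 and -0.61 by day), and agtpbp1, an enzyme that removes glutamates from tubulin (-0.63 ± 0.13, adjusted p = 0.00551, with -0.89 and -0.35 by day). Neither was called within day 2. Within day 1 the list had 8 lower and 1 higher, beside 26.4% and 17.8% of all genes. Within day 2 it had 0 calls by limma, with 4 lower and 1 higher at an unadjusted p under 0.05 and a median of -0.19. At 0.5x 1 fell and 0 rose, beside 4.3% of all genes that fell and 4.38% that rose.

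The list counts in this paragraph stand beside 16.2% of all genes that fell and 10.3% that rose at 1x. Of 13 further IFT motor and adaptor genes of 25 listed, 2 fell at 1x and 0 rose (median -0.09). These were traf3ip1, an IFT-B subunit gene (-0.54 ± 0.13, adjusted p = 0.00978, with -0.75 and -0.28 by day), and kifap3a, the accessory subunit of kinesin-II (-0.39 ± 0.10, adjusted p = 0.0161, with -0.56 and -0.20 by day). Of 21 transition zone genes of 41, 3 fell and 1 rose (median 0.00). The transition zone gene cep290 fell by 0.61 on the log2 scale at 1x (adjusted p = 0.0121) and by 0.64 at 0.5x (adjusted p = 0.0228), with 1x values of -0.91 and -0.33 by day.

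Of 17 further dynein arm genes of 34, 2 fell and 1 rose at 1x (median -0.09), among them the assembly factor gene spag1b (-0.70, adjusted p = 0.0134, with -1.02 and -0.41 by day) and the outer arm gene clxn (0.36, adjusted p = 0.0338, with 0.29 and 0.49 by day). Of 29 central pair and other motile cilia genes of 56, 2 fell and 2 rose (median -0.10). All list counts of this paragraph stand beside 16.2% of all genes that fell and 10.3% that rose at 1x. The central pair gene spef2 gave -0.68 (adjusted p = 0.0333, with -0.84 and -0.43 by day). The gene stoml3b gave 1.35 ± 0.43 (adjusted p = 0.0318), with 2.62 within day 1 (adjusted p = 0.00247) and 0.04 within day 2 (adjusted p = 0.876). Of 18 basal body and centriole genes of 45, 2 fell, cep135 (-1.20, adjusted p = 0.00411, with -1.57 and -0.70 by day) and cby1 (-0.78, adjusted p = 0.00664, with -0.996 and -0.555 by day), and 1 rose (median 0.04).

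The list counts over all arrays at 1x in this paragraph stand beside 16.2% of all genes that fell and 10.3% that rose. Of 10 ciliary transcription factor genes of 20, 2 fell at 1x and 0 rose (median -0.12). The gene rfx3, whose product works with Foxj1 on ciliary promoters, fell at 1x (-0.78 ± 0.16, adjusted p = 0.00564) and at 0.5x (-0.61, adjusted p = 0.0349), with 1x values of -1.16 within day 1 and -0.33 within day 2. The other was her9, a Hes-type repressor gene (-0.53, adjusted p = 0.00962, with -0.46 and -0.54 by day). Of 19 Hedgehog genes of 23, which signal through the immotile cilium, 3 fell and 1 rose (median -0.02), the largest falls being those of the Gli factor genes gli1 (-0.64, adjusted p = 0.0233, with -0.93 and -0.26 by day) and gli2b (-0.56, adjusted p = 0.0132, with -0.77 and -0.25 by day). Of 5 cerebrospinal fluid genes of 13, uts2a, coding for a urotensin, rose (0.35, adjusted p = 0.027, with 0.32 and 0.39 by day). Over the 146 genes of the 9 lists, limma called 9 rises and 46 falls at 1x within day 1, beside 17.8% and 26.4% of all genes. Within day 2 it called 2 rises and 0 falls, beside 2.15% and 2.01% of all genes, with 16 higher and 15 lower at an unadjusted p under 0.05.

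Markers of cell types that carry cilia, and of some that carry few, were followed on the same arrays. For each list every gene was centred on its mean over the arrays and averaged. The counts stand beside 16.2% of all genes that fell and 10.3% that rose at 1x, 26.4% and 17.8% within day 1, and 2.01% and 2.15% within day 2. Of 23 photoreceptor markers of 26 listed, 9 fell at 1x and 0 rose (20 lower within day 1, 3 within day 2), and the averages were -0.051 to 0.472 in controls, -0.278 to -0.0586 at 1x and -0.155 to 0.119 at 0.5x. Of 17 neuron markers of 21, 9 fell and 0 rose (16 lower within day 1, 0 within day 2 also at an unadjusted p under 0.05), with -0.00232 to 0.56 in controls, -0.311 to -0.0184 at 1x and -0.269 to 0.0751 at 0.5x. Of 6 olfactory neuron markers of 10, 2 fell and 0 rose (3 lower within day 1, 1 within day 2), with -0.151 to 0.585 in controls and -0.155 to 0.136 at 1x.

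Of 16 hair cell markers of 26, 2 fell and 1 rose (5 lower and 2 higher within day 1, and within day 2 0 by limma and 2 lower at an unadjusted p under 0.05), with -0.124 to 0.293 in controls and -0.142 to 0.0587 at 1x. Of 13 pronephros markers of 14, 2 rose and 0 fell (6 higher and 1 lower within day 1, 1 lower within day 2), with -0.313 to -0.0318 in controls and -0.0757 to 0.106 at 1x. Of 16 skeletal muscle markers of 16, 7 fell and 0 rose (5 lower within day 1, and within day 2 0 by limma and 1 lower at an unadjusted p under 0.05), with 0.0324 to 0.321 in controls and -0.158 to 0.0113 at 1x.

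Markers of liver and pancreas split the controls most. Of 11 hepatocyte markers of 14, 4 rose at 1x and 0 fell (9 higher within day 1, 1 lower within day 2), with averages of -1.92 and -1.15 in control replicates 1 and 2, up to 0.677 in the other controls and 0.106 to 0.221 at 1x. Of 13 exocrine pancreas markers of 14, 0 passed at 1x by limma (0 at an unadjusted p under 0.05), with averages of -2.63 and -1.83 in control replicates 1 and 2, up to 1.22 in the other controls and -0.412 to 0.332 at 1x. Within day 1 all 13 of these rose at 1x, and within day 2 12 of them fell. The part of these cell types in the cilia gene values was not tested.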

How the data were processed

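RNA of whole larvae was labelled with Cy3 and hybridised to 14 single-colour Agilent arrays (200 ng RNA per sample). Per the file headers, the authors extracted the arrays with Agilent Feature Extraction 10.7, and the deposited files hold the processed signal intensity of each spot, background subtracted and spatially detrended by that software, and flags for spots well above background. The deposited series matrix holds the authors' log2 values of 36346 probes. It was used as an alternative, and its fit differed from the one reported. Between the strengths 0% of all genes passed in it, and its median over the cilia genes at 0.5x was -0.10, beside -0.18 as reported.

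From the deposited intensity, log2 values were taken and each array's 75th percentile was subtracted. Control and outlier spots (73 in all) were left out, spots of a probe were averaged, and 0 spots were saturated. A probe entered the fit when flagged well above background on 4 or more arrays of any group. All 14 arrays entered 1 limma fit (limma 3.58.1, R 4.3.3; lmFit and eBayes, Benjamini-Hochberg adjustment), and a gene was represented by its brightest probe. Precision is limited by how many arrays each group has. The fit was tested on simulated data with independent normal noise and no difference between scan days. That test therefore has no bearing on the shifts between scan days. Probes (25978 of 43603) were named by RefSeq accession through the GRCz12tu gene table, used for names only.

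Slide and scan day were taken from the file headers. Alternatives were normexp background correction on the median signal (the mean signal that was planned was not used here), quantile normalization, other filters on dim probes, blocks for slide, scan day and replicate number, each scan day alone, each array left out, the mean over probes, all probes, only the groups compared, and the series matrix. Leaving out control replicates 1 and 2 together, and the normexp setting on the median signal, were chosen after seeing the data. A planned search of promoters for motifs was not run.

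The members, lists and tests were chosen with earlier results of these data known. Named were the 9 listed genes, up to 10 other falls and rises past the threshold per comparison, and the brightest gene of each class. Genes below background on every array of a group but not of another, and the 2 largest called changes of each pathway list, were named too. The genes bbs7, rsph3, ift20, ift22 and tekt2 fall outside these rules and were named for values already seen. 1 named gene of a pathway list is not reported here.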

Additional observations from a re-analysis of the deposited data

Results flagged for a closer look

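Of 60 groups of arrays tested for a single value far from the rest, 1 was singled out, and chance alone singles out about 1 in 20 such groups. The level of bbs4 in 0.5x replicate 1, the only 0.5x array scanned on day 1, was -3.57. The other 0.5x arrays, all of day 2, lay between -2.96 and -2.77 (gap over range 0.756). Without this array the bbs4 fold change at 0.5x was -0.64 (adjusted p = 0.0796 by limma), so its call at 0.5x rests on it among other arrays.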

How the results depend on the processing

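At 1x the count of cilia genes past the threshold was 12 of 59 as reported. It was 23 with normexp correction, 22 within scan day 1, 1 within day 2, 7 with only the groups compared and 2 without control replicates 1 and 2. With 1 array left out it was 4 to 16, and with every probe counted it was 24 of 103 probes. The share of all genes that fell moved too, from 16.2% to 24.4% with normexp correction. It was 26.4% within day 1, 2.01% within day 2 and 11.5% with only the groups compared. Without control replicates 1 and 2, 5.54% fell and 5.83% rose. That share was 7.95% without control replicate 1 (4 cilia genes) and 18.5% without control replicate 3 (16 cilia genes). The median at 1x of -0.15 was -0.34 within day 1, 0.03 within day 2 and 0.00 without control replicates 1 and 2, and -0.24 to -0.06 with 1 array left out. At 0.5x the count of 4 was 2 with normexp correction, 2 with no filter on dim probes, 15 within day 1, 2 within day 2, 2 with only the groups compared, 11 over every probe, 2 without control replicates 1 and 2, and 2 to 10 with 1 array left out. The share of all genes that fell at 0.5x moved too, from 4.3% to 2.47% with normexp correction and 3.2% with no filter on dim probes. It was 0.734% within day 2, 1.11% with only the groups compared, 4.47% over every probe and 0.57% without control replicates 1 and 2. Without control replicate 1 (2 cilia genes) 1.25% fell. Without control replicate 4 (10 cilia genes) 11.6% fell and 12.4% rose. The median at 0.5x of -0.18 was -0.36 within day 1, 0.01 within day 2 and -0.03 without control replicates 1 and 2, and -0.26 to -0.11 with 1 array left out. Between the strengths the count of 2 stood beside 1.67% of all genes higher and 2.65% lower at 1x. It was 0 with the slide as a block (0.757% and 1.13% of all genes) and 0 within day 2 (0.937% and 1.8%). With the mean over probes it was 1 (2.01% and 2.11%). In the series matrix it was 0, but 0% of all genes passed there, so that setting has no bearing on the cilia genes. With 1 array left out it was 1 to 2, with medians of -0.01 to 0.02. The cause of these shifts was not tested. With the replicate number as a block the counts were 11, 5 and 2 and the medians -0.16, -0.17 and -0.01. Of all genes, 17.8% then fell at 1x and 4.8% at 0.5x, and between the strengths 1.94% were higher and 2.58% lower at 1x. No label says whether a replicate number pairs wells across groups. Of 13 pairs of arrays with the same number, 7 correlated over 0.1 in their deviations (-0.224 to 0.493), which does not settle it. The single reversal was dnai1.2 at 1x, 0.11 with the mean over its probes (adjusted p = 0.762 by limma). The call of ccdc40 at 1x held in all 27 settings and that of ift74 at 0.5x in all 27. Normexp correction moved the median of all genes at 1x from -0.05 to -0.10 and quantile normalization to 0.00. Probes near background limit the values of the dimmest genes. Normexp on the mean signal was not run.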
